A study of Mus musculus with 15 samples.

Results

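The sodium pump genes Atp1b1, Atp1b2, Atp1b3 and Fxyd5 were described across stretched and unstretched podocytes. These 4 genes, of 55416 in the count table, were picked by name with their response to stretch already known, so their stretched and unstretched values are given as a description without a test. RNA-seq had been done on 15 samples of SVI cells, a conditionally immortalised line of mouse podocytes, the epithelial cells that wrap the capillaries of the kidney glomerulus. All samples came from differentiated cells on flexible silicone membranes, and the stated aim was gene expression and alternative splicing in a model of glomerular hypertension. Experiment 1 held 6 low-stretch samples, labelled with a deflection of 5 to 6 mm, and 3 unstretched samples. Experiment 2 held 3 high-stretch samples, labelled 7 to 8 mm, and 3 unstretched samples. Each stretched group was set against the unstretched samples of its own experiment, because amplitude and experiment cannot be told apart. All samples derive from a single cell line, and the labels do not state that samples of a group were separate cultures, so p-values measure the spread between these samples, which may be technical.

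The sodium pump, or Na,K-ATPase, moves sodium out of the cell and potassium in at the cost of ATP. Its alpha subunit carries out the transport, and its glycosylated beta subunit is needed for folding and delivery of the pump to the plasma membrane and also takes part in adhesion between neighbouring cells. Small membrane proteins of the FXYD family bind the pump and tune its activity. Atp1b1 encodes the beta subunit common in epithelia, Atp1b2 encodes a beta subunit first studied as an adhesion molecule of glia, and Atp1b3 encodes a further, widely expressed form. Fxyd5, also named dysadherin, encodes a FXYD protein known for weakening adhesion between epithelial cells.

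Promoter sequences from RefSeq (GRCm38.p6) were matched for 3 of the 4 genes, Atp1b1, Atp1b3 and Fxyd5. They are shown side by side for the abundant beta subunits and the scarce Fxyd5, and a link to level was not tested. Each runs 5′ to 3′ on the minus strand and is a window of 300 bases that spans the outermost annotated start of the gene. Whether the transcripts in these cells begin there was not tested. Capitals mark GGGCGG (the core of a GC box), CCAAT and TATANA, each on either strand.
Atp1b1: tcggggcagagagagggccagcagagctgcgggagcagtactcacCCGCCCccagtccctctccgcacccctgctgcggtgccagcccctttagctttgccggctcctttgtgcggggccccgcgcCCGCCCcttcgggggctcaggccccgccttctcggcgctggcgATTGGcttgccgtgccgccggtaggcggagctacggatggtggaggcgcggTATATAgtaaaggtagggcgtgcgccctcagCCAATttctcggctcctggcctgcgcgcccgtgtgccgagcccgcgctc
Atp1b3: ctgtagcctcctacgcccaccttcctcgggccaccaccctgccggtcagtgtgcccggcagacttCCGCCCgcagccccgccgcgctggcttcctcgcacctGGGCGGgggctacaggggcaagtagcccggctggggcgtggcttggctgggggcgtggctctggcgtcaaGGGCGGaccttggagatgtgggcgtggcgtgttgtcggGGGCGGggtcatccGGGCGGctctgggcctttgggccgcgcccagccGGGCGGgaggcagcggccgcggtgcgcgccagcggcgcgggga
Fxyd5: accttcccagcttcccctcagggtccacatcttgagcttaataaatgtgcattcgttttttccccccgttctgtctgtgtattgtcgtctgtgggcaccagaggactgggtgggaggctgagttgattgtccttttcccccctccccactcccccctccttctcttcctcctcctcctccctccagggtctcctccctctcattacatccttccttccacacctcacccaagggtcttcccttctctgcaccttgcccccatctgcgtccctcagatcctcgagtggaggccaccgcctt
The windows are chr1:164458306-164458605 for Atp1b1, chr9:96364382-96364681 for Atp1b3 and chr7:31042282-31042581 for Fxyd5. The Atp1b1 window held GGGCGG 2 times, CCAAT 2 times and a single TATATA that matches TATANA on both strands. The Atp1b3 window held GGGCGG 6 times and neither of the other motifs, and the Fxyd5 window held none of the 3. Of 32851 mouse promoters of the same length, 35.7% held GGGCGG, 37.4% held CCAAT and 24.7% held TATANA. CG dinucleotides numbered 31 in Atp1b1, 34 in Atp1b3 and 6 in Fxyd5, against a median of 7 over all promoters. GC content was 71.0%, 76.0% and 57.3%, against a median of 52.7%. These matches describe letters in a window and are not evidence of binding.

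Depth was high, at 172.2 to 396.7 M counts (megacounts) per sample, so the values of Atp1b1, Atp1b2 and Atp1b3 rest on at least 116 counts. The podocyte identity of the cells was checked on 12 markers. Levels are given as CPM, counts scaled to library sizes adjusted by TMM. Of the markers, 6 or 7 had a group mean of at least 1 CPM in every group, and their summed level was 959.5 to 1454 CPM per sample. All 3 parietal epithelial markers listed (Cldn1, Pax8 and Pax2) reached that mean in every group too. They summed to 311.7 to 597.1 CPM per sample, so these levels alone do not set the cell types apart. The slit diaphragm gene Nphs1 was at most 0.985 CPM in any sample, and the transcription factor gene Tcf21 had no counts in either stretched group. Tcf21 was too scarce to pass the filter on low counts in any comparison, also between the unstretched groups. Its absence from stretched samples is therefore not read as a change. In experiment 2, unstretched replicate 3 stood apart from its group, with a first principal component score of 31.7 against 122 and 163.4.

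Atp1b2 transcripts were several-fold scarcer in stretched than in unstretched podocytes in both experiments. In experiment 1, the 3 unstretched samples held 4.50, 2.95 and 9.71 CPM of Atp1b2. The 6 low-stretch samples had a lowest value of 0.367, a median of 0.903 and a highest value of 2.14 CPM. The groups did not overlap: the highest low-stretch sample lay below the lowest unstretched one. In experiment 2, the unstretched samples held 10.2, 9.34 and 14.9 CPM and the high-stretch samples 0.686, 0.931 and 1.06 CPM. These groups stood wide apart, and all 3 high-stretch samples fell within the range of the low-stretch samples. The log2 fold change was -2.37 (SE 0.51) under low stretch, 5.15-fold lower, and -3.69 (SE 0.29) under high stretch, 12.9-fold lower. With single samples left out, it ranged from -2.67 to -1.76 under low stretch, the latter without unstretched replicate 3, and from -3.80 to -3.45 under high stretch. In bulk RNA, fewer cells with the transcript and less of it per cell cannot be told apart.

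Fxyd5 transcripts were rare in unstretched cells and more abundant in most stretched samples. The unstretched samples of experiment 1 held 0.0588, 0.102 and 0.0063 CPM, from 20, 34 and 2 counts. The low-stretch samples had a lowest value of 0.0406, a median of 0.254 and a highest value of 0.822 CPM, from 13 to 260 counts. Low-stretch replicates 5 and 6 lay within the unstretched range, so the groups overlapped, while the other 4 lay above it. In experiment 2, the unstretched samples held 0.0505, 0.194 and 0.0297 CPM and the high-stretch samples 0.740, 0.674 and 0.839 CPM, and these groups did not overlap. The log2 fold change was 2.50 (SE 0.99) under low stretch and 3.11 (SE 0.62) under high stretch. The low-stretch value ranged from 1.97 to 3.28 with single samples left out, the latter without unstretched replicate 2. The high-stretch value was 4.28 without unstretched replicate 2, the sample of that group with the most Fxyd5 counts (27). Fxyd5 passed the filter on low counts through the stretched groups: it exceeded the CPM minimum in all stretched samples, but in 2 of 3 unstretched samples of experiment 1 and 1 of 3 of experiment 2.

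Atp1b1 was one of the 2 abundant beta subunits, and its stretched and unstretched samples overlapped in both experiments. The unstretched samples of experiment 1 held 231.5, 209.3 and 206.4 CPM. The low-stretch samples had a lowest value of 133.2, a median of 181.2 and a highest value of 278.8 CPM. Low-stretch replicate 1 lay above every unstretched sample and the other 5 lay below. In experiment 2, the unstretched samples held 103.8, 103.3 and 248.3 CPM and the high-stretch samples 109.0, 71.4 and 102.2 CPM. These groups overlapped, and the unstretched mean was raised by replicate 3, the sample that stood apart. The log2 fold change was -0.21 (SE 0.18) under low stretch and -0.69 (SE 0.36) under high stretch, and the latter was -0.13 without that sample. Atp1b1 overlaps Nme7 on the opposite strand over 617 bases. Nme7 had 2268 to 7536 counts per sample and Atp1b1 at least 10287, and the strand setting of the counting is not given in the sources used here.

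Atp1b3 differed little between stretched and unstretched samples. It held 155.4, 154.1 and 174.6 CPM in the unstretched samples of experiment 1, and in the low-stretch samples it had a lowest value of 159.0, a median of 173.3 and a highest value of 216.2 CPM. In experiment 2, the unstretched samples held 148.2, 132.0 and 165.4 CPM and the high-stretch samples 205.7, 140.6 and 179.8 CPM. Both pairs of groups overlapped. The log2 fold change was 0.13 (SE 0.10) under low stretch and 0.24 (SE 0.19) under high stretch.

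Groups did not overlap for Atp1b2 under low stretch, and for Atp1b2 and Fxyd5 under high stretch. Of all genes tested, 15.9% had groups that did not overlap under low stretch (6 samples against 3) and 20.9% under high stretch (3 against 3). Since the 4 genes were picked with these contrasts known, nothing is read from that count.

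**Figure D1:**
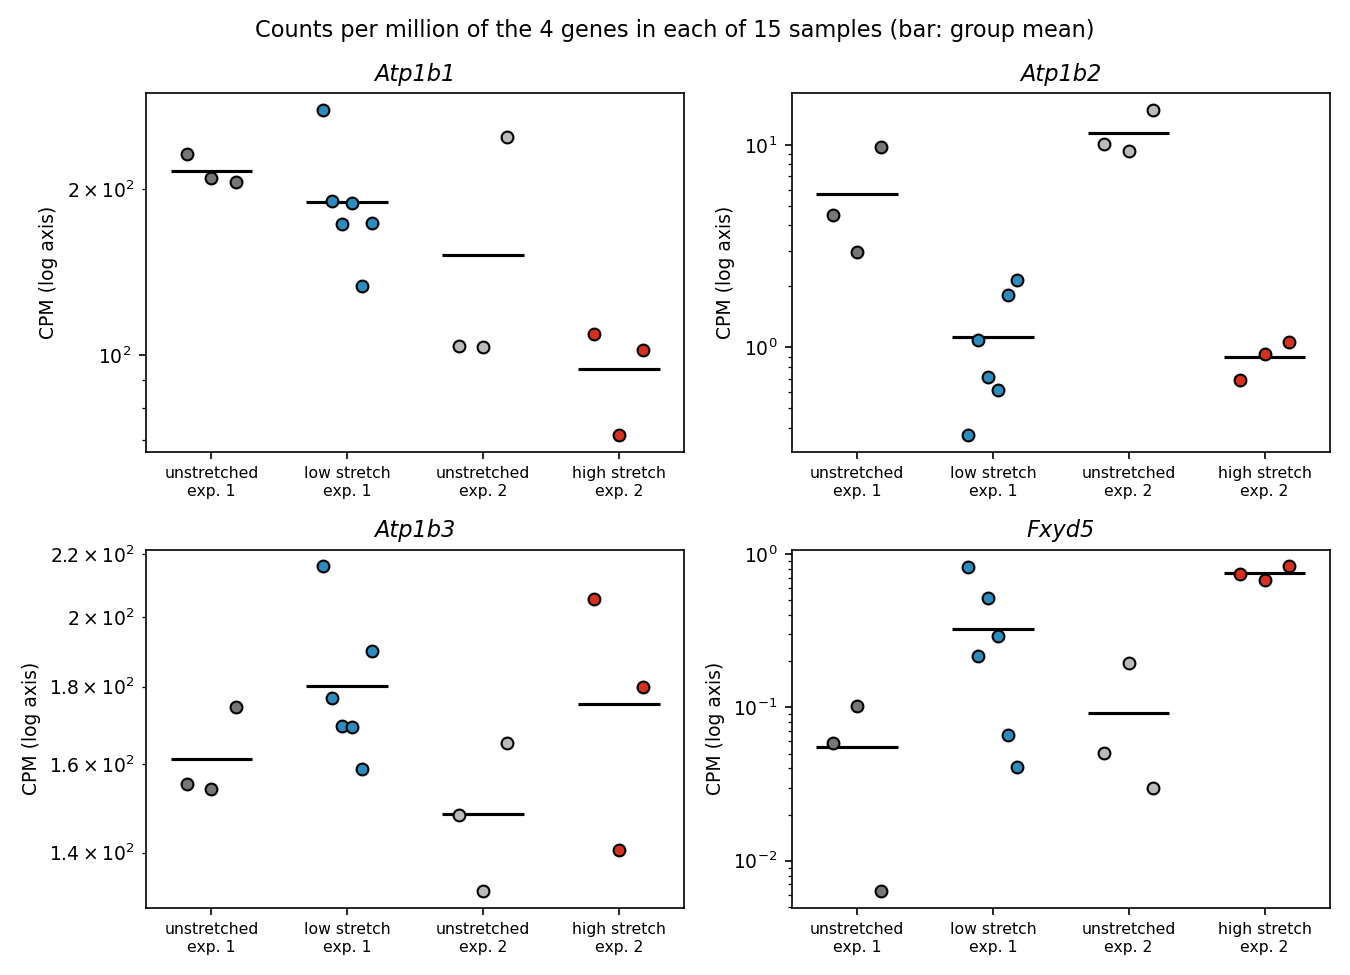
CPM on a log axis of Atp1b1, Atp1b2, Atp1b3 and Fxyd5 in each of the 15 samples (points) with the group mean (bar). Atp1b2 separates stretched from unstretched samples in both experiments, with 0.367 to 2.14 against 2.95 to 9.71 CPM in experiment 1 and 0.686 to 1.06 against 9.34 to 14.9 CPM in experiment 2.

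The codes in the sample descriptions have the form of plate positions, and neighbouring codes form 6 runs of 1 unstretched sample with 1 or 2 stretched samples. In experiment 2 a run holds the samples of 1 replicate number, which did not deviate together in every run (correlations of -0.163 to 0.449), so its ratios set samples side by side without a shown pairing. Within these runs, Atp1b2 was lower in each of the 6 low-stretch samples than in the unstretched sample of its run, by a log2 ratio between -3.62 and -2.04. It was lower in each of the 3 high-stretch samples too, at -3.89, -3.33 and -3.82. Fxyd5 was higher in each stretched sample than in its run's unstretched sample, by 1.52 to 3.81 in the first and second runs of experiment 1 and by 1.79 to 4.82 in experiment 2. In the third run of experiment 1 the unstretched sample held 2 Fxyd5 counts against 19 and 13 in the stretched samples. That run had the highest Atp1b2 and the lowest Fxyd5 of experiment 1, in its unstretched sample (9.71 and 0.0063 CPM) and in its stretched samples (1.82 and 2.14, 0.0658 and 0.0406 CPM) within their own groups. The overlap of Fxyd5 in experiment 1 thus lay across runs that are inferred from codes, each with 1 unstretched sample. The labels do not state what the codes stand for, and the part of runs in this overlap was not tested. Atp1b1 was lower in 5 of 6 low-stretch and 2 of 3 high-stretch samples than in the unstretched sample of the run, and Atp1b3 was higher in 5 of 6 and 3 of 3.

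**Figure D2:**
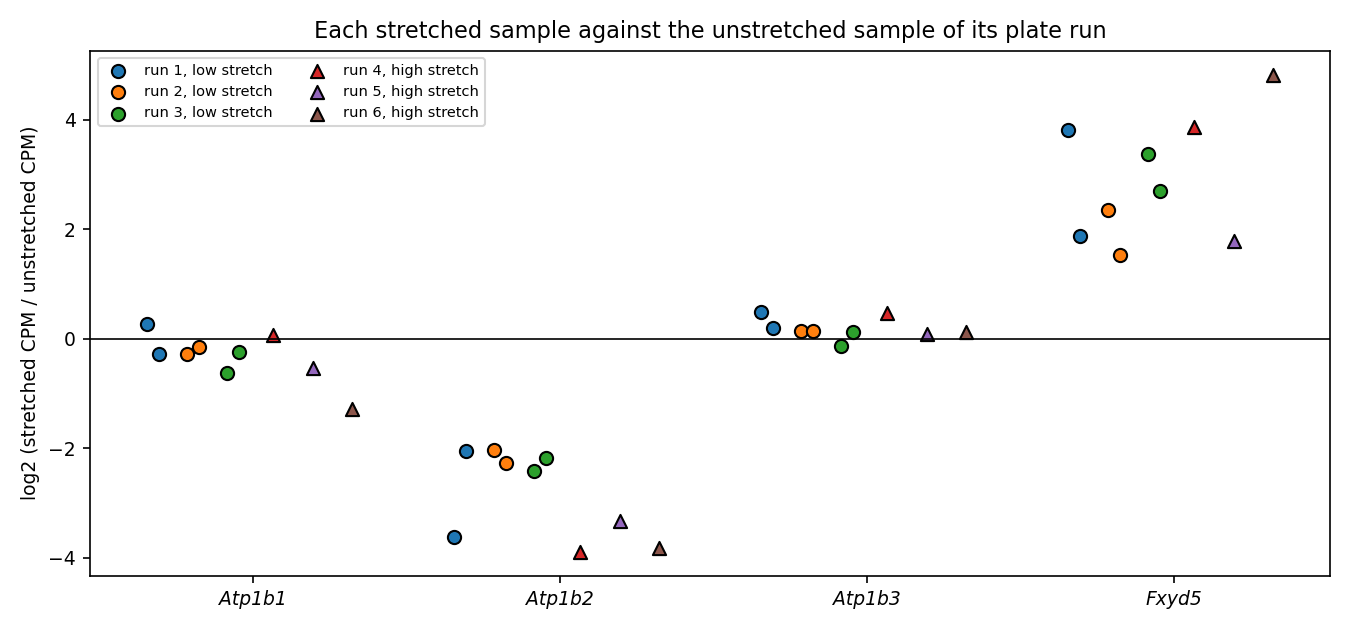
Log2 ratio of CPM in each stretched sample over the unstretched sample of its run, for the 4 genes; circles are low stretch and triangles high stretch, coloured by run. All 9 Atp1b2 points lie below 0, between -3.89 and -2.04, and all 9 Fxyd5 points lie above 0; the Fxyd5 points of run 3 rest on 2 unstretched counts.

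Levels of different genes were compared in TPM, the authors' transcript abundances, which account for length, summed over the transcripts of a gene. Of the 4 genes, Atp1b1 (50.2 to 279.8 TPM) and Atp1b3 (79.4 to 210.5 TPM) were the most abundant, and their order differed between samples. Atp1b2 followed at 0.246 to 8.96 TPM and Fxyd5 at 0.0154 to 2.53 TPM. Atp1b2 lay above Fxyd5 in all unstretched samples. The order turned in the high-stretch samples, with 0.308, 0.338 and 0.448 TPM of Atp1b2 against 1.68, 1.22 and 1.48 TPM of Fxyd5. In the low-stretch samples the ranges overlapped, with 0.246 to 1.36 TPM of Atp1b2 and 0.135 to 2.53 TPM of Fxyd5.

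Atp1b2 was a minor part of the beta subunit pool throughout. Its mean share of the beta subunit TPM was 1.06% ± 0.697 (SD, n = 3) in unstretched and 0.214% ± 0.143 (SD, n = 6) in low-stretch samples of experiment 1. In experiment 2 it was 2.34% ± 0.105 (SD, n = 3) unstretched and 0.205% ± 0.0668 (SD, n = 3) under high stretch. Neither pair of groups overlapped. The Atp1b1 share was 58.0% ± 3.35 unstretched against 51.8% ± 3.63 under low stretch, and 50.5% ± 9.26 unstretched against 37.9% ± 0.948 under high stretch, with the Atp1b3 share higher in turn. The ratio of Atp1b1 to Atp1b3 was 1.56, 1.48 and 1.23 in the unstretched samples of experiment 1 and 0.899 to 1.33, with a median of 1.10, under low stretch, so these groups overlapped. In experiment 2 it was 0.810, 0.924 and 1.66 unstretched and 0.597, 0.597 and 0.641 under high stretch, with no overlap. The change in the Atp1b1 share under high stretch, -12.7 percentage points, was -7.43 without unstretched replicate 3.

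**Figure D3:**
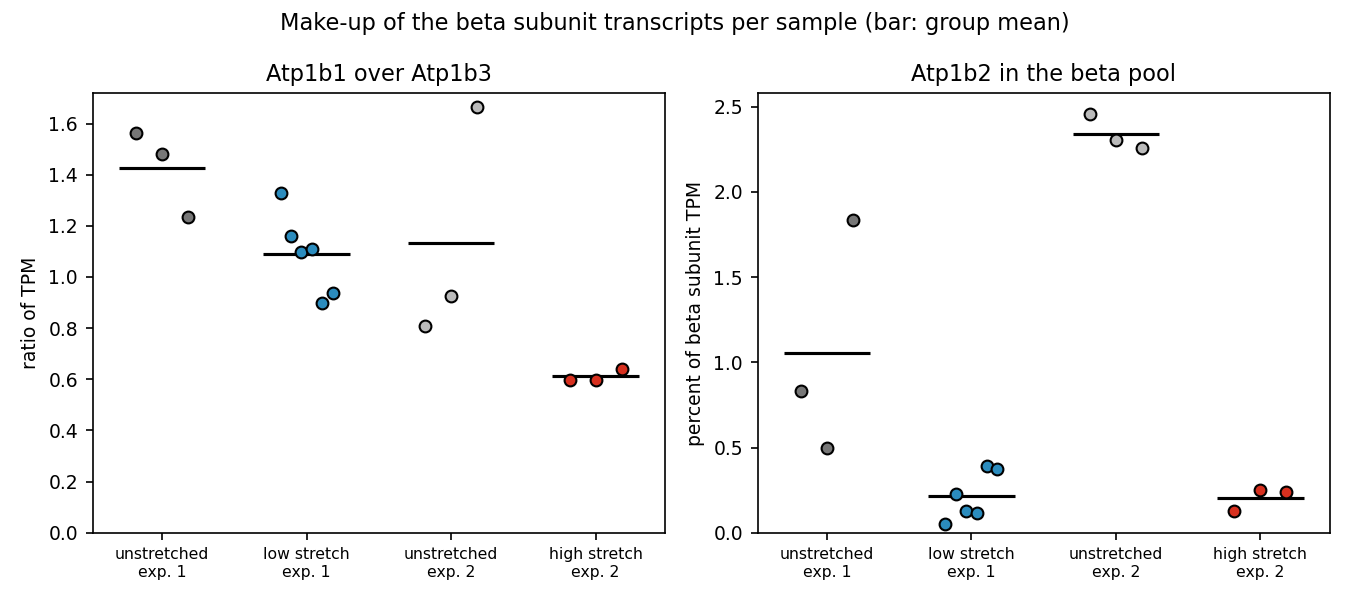
Ratio of Atp1b1 to Atp1b3 TPM and percent of beta subunit TPM from Atp1b2, per sample (points) with group means (bars). The Atp1b2 share is 0.129% to 0.251% in the high-stretch samples against 2.26% to 2.46% in their unstretched samples.

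Transcript shares of the 4 genes, linked to genes through GENCODE M21, were set side by side with no test. The main coding transcript Atp1b2-201 (2842 bases, 870 coding) took a mean of 74.5% and 82.3% of Atp1b2 TPM in the unstretched and low-stretch samples, and 80.1% and 77.3% in the unstretched and high-stretch samples. Its own level was 3.15 TPM against 0.611 TPM in experiment 1 and 4.51 against 0.288 TPM in experiment 2. The non-coding transcript Atp1b2-202 took 14.1%, 13.2%, 16.3% and 22.7% in the same order of groups. The non-coding transcript Atp1b2-204 took 11.0%, 3.82% and 3.61% and was listed at 0 in all 3 high-stretch samples. It was also listed at 0 in at least 1 sample of each other group, and under low stretch the median share was 0 and the highest 22.9%. Atp1b1 was mainly Atp1b1-201 (2580 bases, 912 coding), with 80.4% and 81.2% in experiment 1 and 70.0% and 70.5% in experiment 2. The shorter Atp1b1-203 (628 bases) took 16.9% and 16.8%, then 29.6% and 28.9%, and thus differed between experiments rather than with stretch. Atp1b3-201 took at least 99.5% of Atp1b3 in each group's mean. Fxyd5 TPM was spread over 14 transcripts, of which 8 reached a mean share of 5% in a group (Fxyd5-201, Fxyd5-203, Fxyd5-206, Fxyd5-207, Fxyd5-209, Fxyd5-210, Fxyd5-211 and Fxyd5-214). None exceeded 0.914 TPM in a sample. In the high-stretch samples the leading transcripts were Fxyd5-209 at 36.6%, Fxyd5-201 at 26.8% and Fxyd5-207 at 17.1%, all coding.

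The unstretched groups of the experiments were compared with edgeR's quasi-likelihood test, a contrast not used to pick the genes. Between them 62.5% of genes passed an adjusted p of 0.05, and none of the 4 genes did. Atp1b2 was higher in experiment 2 by 0.98 (log2, SE 0.41; edgeR adjusted p = 0.0662). The difference was 1.60 with an edgeR adjusted p of 0.0234 without unstretched replicate 3 of experiment 1. The adjusted p was 0.0256 with DESeq2 and 0.0439 without the filter, in a range of 0.00519 to 0.187 over 12 alternatives. The lowest came from an edgeR fit that joined samples of different experiments by replicate number. Atp1b1 was lower by -0.54 (SE 0.32; edgeR adjusted p = 0.172). Without unstretched replicate 3 of experiment 2 the difference was -1.10 with an edgeR adjusted p of 7.75e-05, and adjusted p ranged up to 0.464 over the alternatives. Atp1b3 differed by -0.14 (SE 0.16; edgeR adjusted p = 0.473) and Fxyd5 by 0.61 (SE 0.91; edgeR adjusted p = 0.571). The Fxyd5 difference turned to -0.54 without unstretched replicate 2 of experiment 2. The mitochondrial share of counts was 3.653% to 4.629% in the unstretched samples of experiment 1 and 1.148% to 2.596% in those of experiment 2, and its part in these differences was not tested.

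The high-stretch effect of experiment 2 and the low-stretch effect of experiment 1 were also set against each other in a single edgeR fit of all 15 samples. This uses the values that the genes were picked on, so their differences are a description, and amplitude and experiment cannot be told apart in it. The log2 difference, high minus low, was -1.34 for Atp1b2 (SE 0.72), -0.50 for Atp1b1 (SE 0.39), 0.08 for Atp1b3 (SE 0.20) and 0.59 for Fxyd5 (SE 1.29). The Atp1b2 value ranged from -1.96, without unstretched replicate 3 of experiment 1, to -1.02, without unstretched replicate 2 of experiment 1. Without single samples the sign turned for Atp1b1 (0.09 without unstretched replicate 3 of experiment 2), Atp1b3 (-0.05 without high-stretch replicate 1) and Fxyd5 (-0.17 without unstretched replicate 2 of experiment 1). Of 22015 genes, edgeR called 0 (0%), with 547 at an unadjusted p under 0.05, and DESeq2 called 0 with 665.

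The remaining beta subunit gene and most other FXYD genes had few counts, while Fxyd4 had counts of the order of Fxyd5. The beta subunit gene Atp1b4 had at most 4 counts in a sample. Among FXYD genes, Fxyd4 reached 305 counts (0.901 CPM), Fxyd1 17, Fxyd6 7, Fxyd2 4, and Fxyd3 and Fxyd7 1 each. In TPM, Fxyd4 lay above Fxyd5 in every unstretched sample. It held 0.525 to 0.904 against 0.0154 to 0.220 TPM in experiment 1, and 0.264 to 0.588 against 0.0841 to 0.276 TPM in experiment 2. In the high-stretch samples Fxyd4 lay below Fxyd5, at 0.108 to 0.214 against 1.22 to 1.68 TPM. Under low stretch the order differed between samples.

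Of 72 other genes listed for the pump, its relatives, partners, sodium-coupled transport, calcium pumps, cadherins and catenins, 52 were tested under low stretch. Of these 3 rose and 2 fell, against 5.45% of all genes called by edgeR. Under high stretch 51 were tested and 2 rose and 0 fell, against 3.47% of all genes. At an unadjusted p under 0.05, 23.6% and 14.6% of all genes passed. These lists, and the marker lists below, were chosen with earlier results of these data known. Their calls and p-values are therefore a description, not an independent test. Among pump partners, Nkain1, a membrane protein that interacts with the pump, rose from 8.63 ± 3.04 CPM (SD, n = 3) to 20.8 ± 5.69 (SD, n = 6) under low stretch and from 14.1 ± 5.37 (SD, n = 3) to 46.8 ± 4.85 (SD, n = 3) under high stretch. Its log2 fold changes were 1.24 (edgeR adjusted p = 0.0377) and 1.72 (edgeR adjusted p = 0.0217). The tyrosine kinase gene Src rose by 0.50 under low stretch (edgeR adjusted p = 0.0293), and the ankyrin gene Ank2, an anchor of membrane transporters, fell by 0.57 (edgeR adjusted p = 0.0248). Slc20a1, a sodium-coupled phosphate transporter, rose by 0.85 under low stretch and 1.51 under high stretch (edgeR adjusted p = 0.00397 and 0.016). The cadherin Cdh1 fell by 1.18 under low stretch (edgeR adjusted p = 0.0391), from a level of 0.213 to 0.0949 CPM. Under high stretch Src (0.61), Ank2 (-0.70) and Cdh1 (-1.73) did not pass, with edgeR adjusted p of 0.296, 0.423 and 0.0934. Median log2 fold changes under low and high stretch were -0.02 and -0.08 for the tested partners, anchors and kinases, -0.11 and -0.03 for sodium-coupled transporters, -0.17 and 0.18 for calcium pumps, and 0.18 and 0.32 for cadherins and catenins. Over all genes tested they were 0.008 and -0.022.

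Several of these calls depended on the fit or on single libraries. Ank2, Src and Cdh1 lost their low-stretch calls in the edgeR fit of all 15 samples (adjusted p = 0.208, 0.135 and 0.0627) and with the replicate block (0.0996, 0.054 and 0.147). In each of these fits 2 listed genes rose and 0 fell. The replicate block joined samples by a number that did not pair them, and kept only 3 low-stretch samples. With plate runs as the block, Ank2, Src and Cdh1 kept their low-stretch calls. With 1 sample left out, 1 to 5 listed genes rose and 0 to 2 fell under low stretch, and 0 to 5 rose and 0 to 1 fell under high stretch. The low-stretch call of Slc20a1 was kept in all 9 fits that left out 1 sample. The low-stretch call of Nkain1 was lost without unstretched replicate 1 or 3, or low-stretch replicate 1, 2, 3 or 4, with edgeR adjusted p up to 0.151. That of Ank2 was lost without unstretched replicate 1 or 3 or low-stretch replicate 4 (up to 0.145), and that of Src without unstretched replicate 1 or 3 or low-stretch replicate 2 or 4 (up to 0.16). That of Cdh1 was lost without unstretched replicate 1, 2 or 3 or low-stretch replicate 1, 4 or 6 (up to 0.172). Under high stretch, the Nkain1 call was lost without unstretched replicate 1 or any 1 high-stretch sample (up to 0.114), and that of Slc20a1 without unstretched replicate 1 or high-stretch replicate 1 or 3 (up to 0.0918). All fold changes named kept their direction in these fits.

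The list genes named whatever their values passed in neither contrast, apart from Cdh1. Slc12a2, a sodium-potassium-chloride cotransporter, differed by -0.24 (SE 0.12) under low and -0.36 (SE 0.42) under high stretch. The calcium pump genes Atp2b1 and Atp2a2 differed by 0.07 and -0.07 under low and -0.04 and 0.11 under high stretch. Ank3 differed by -0.18 and -0.36, Cav1 by -0.42 and -0.18, and the catenin Ctnnb1 by 0.07 and 0.22. Sgk1, a kinase that raises sodium transport, differed by 0.63 (SE 0.17; edgeR adjusted p = 0.0593) and 0.79 (SE 0.28; edgeR adjusted p = 0.216). The cadherin Cdh2 differed by 0.33 (SE 0.10; edgeR adjusted p = 0.0879) and 0.50 (SE 0.27; edgeR adjusted p = 0.482).

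**Figure D4:**
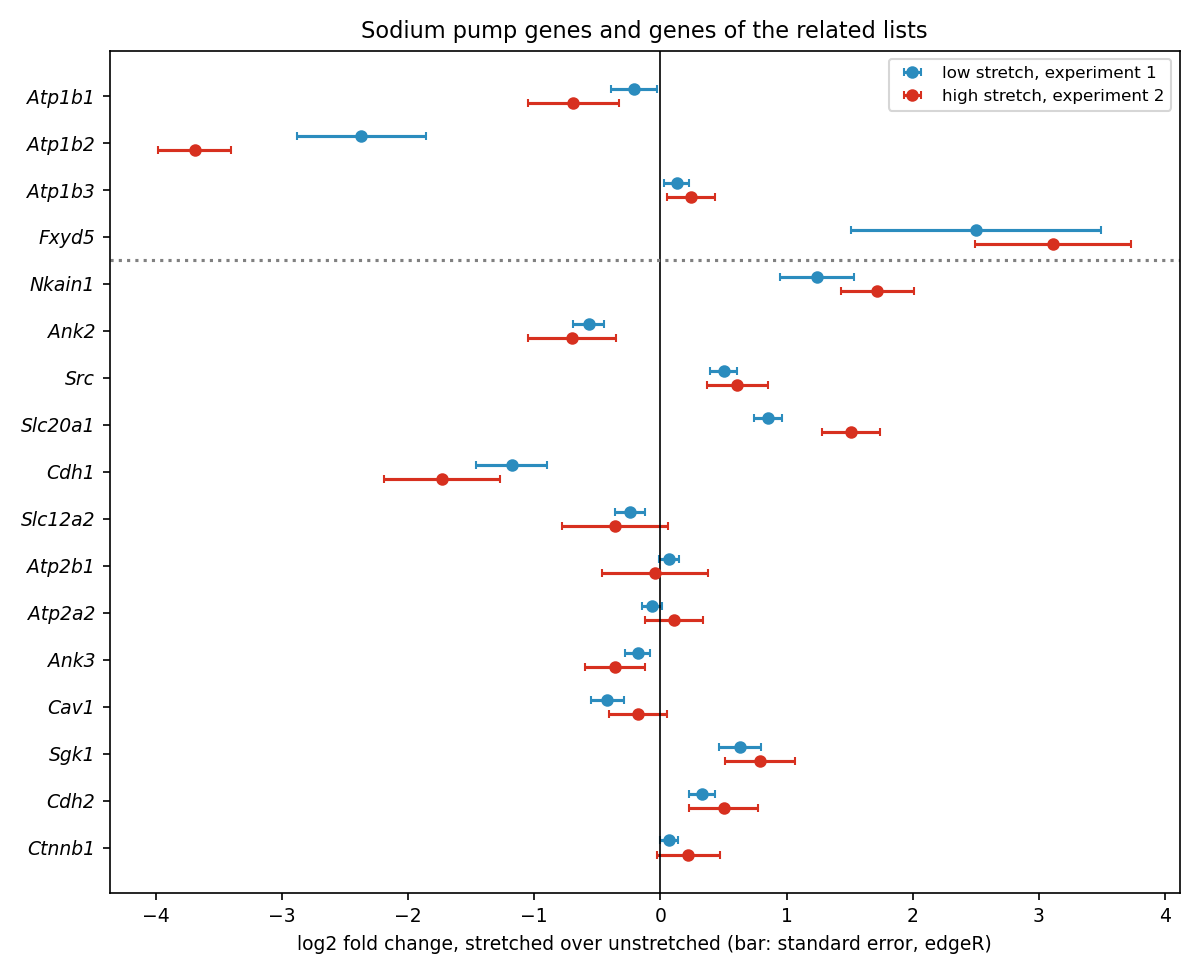
Log2 fold change of stretched over unstretched samples (points, with SE from edgeR) for the 4 sodium pump genes, above the dotted line, and for other named genes below it, under low stretch (blue) and high stretch (red). Atp1b2 lies at -2.37 and -3.69 and Fxyd5 at 2.50 and 3.11, while Atp1b3 lies at 0.13 and 0.24.

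The genes most like Atp1b2 across the 15 samples were sought among 12935 genes with a mean of at least 1 CPM. Values were log2 CPM minus the mean of the experiment, and likeness was Pearson's r, a description over samples that share libraries and the stretched against unstretched split. The highest were Fgfr3 (0.988), a fibroblast growth factor receptor, Cdk15 (0.986), Gbp2 (0.983), an interferon-inducible GTPase, Gpc4 (0.982), a cell surface proteoglycan, and A330040F15Rik (0.982). The lowest were Pmepa1 (-0.986), an inhibitor of TGF-beta signalling, Tnfaip3 (-0.985), an inhibitor of NF-kappaB signalling, Tes (-0.979), a focal adhesion protein, Gclm (-0.976), a subunit of the enzyme for glutathione synthesis, and Akr1b8 (-0.970). In all, 701 genes lay above 0.8 and 848 below -0.8, so a pattern like that of Atp1b2 was common. Fxyd5 had an r of -0.933 with Atp1b2, Atp1b3 -0.507 and Atp1b1 0.34. Fxyd5 lay below the minimum of 1 CPM, at 0.839 CPM or less in every sample, and was not among the genes ranked. It and Atp1b2 were both picked with their response to stretch known, so nothing is read from their r.

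**Figure D5:**
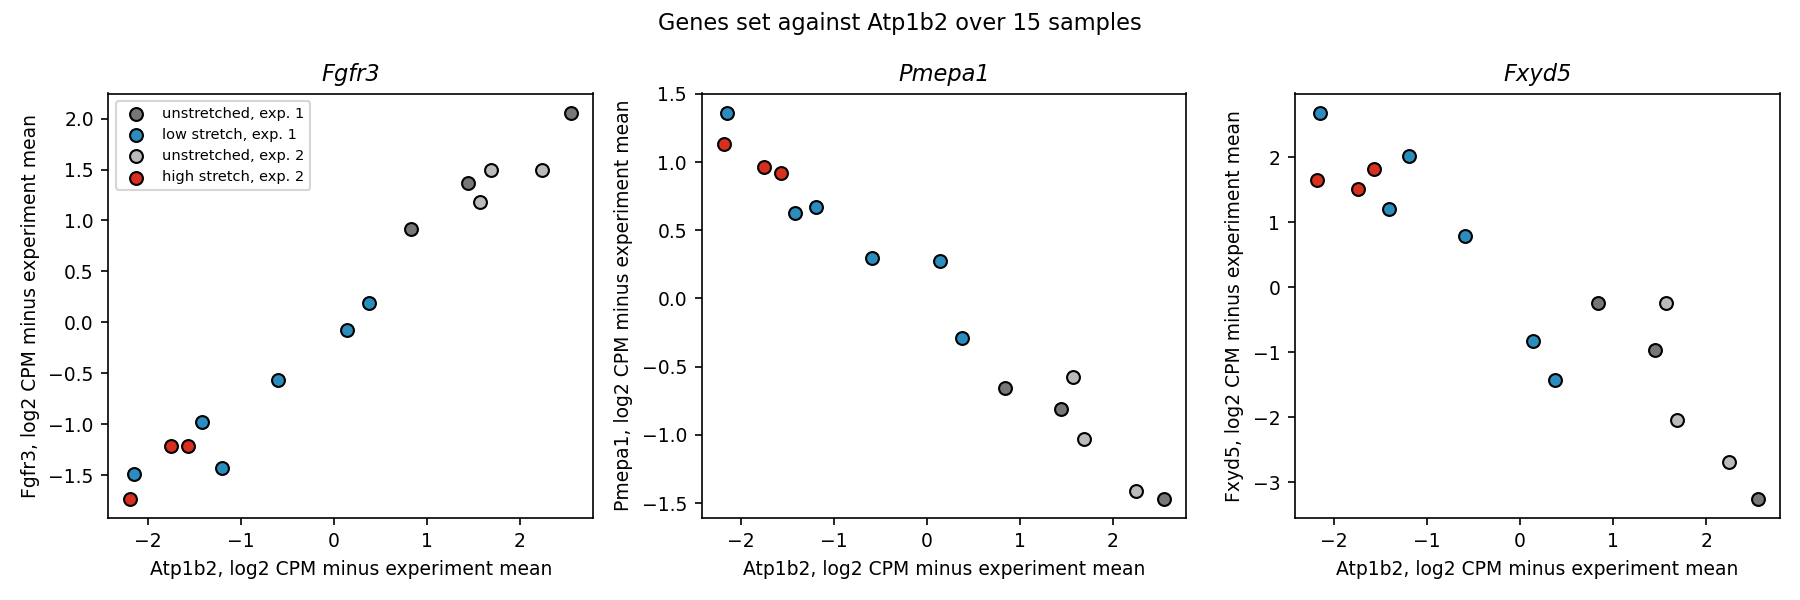
Fgfr3, Pmepa1 and Fxyd5 against Atp1b2, each as log2 CPM minus the mean of its experiment, for 15 samples coloured by group. Fgfr3 rises with Atp1b2 (r = 0.988), and Pmepa1 and Fxyd5 fall with it (r = -0.986 and -0.933). Fxyd5 has few counts and lies below the CPM minimum of the ranked genes.

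The summed levels of 3 marker lists of other cell types were lower in stretched samples of both experiments, as Atp1b2 was, but not every marker in them was. The summed level of 5 proximal tubule markers was 988.3 to 1360 CPM unstretched and 493.9 to 805.2 CPM under low stretch, then 966.6 to 1238 CPM unstretched and 319.8 to 490.7 CPM under high stretch. It was led by Lrp2 and Aqp1, with 3 of 5 at a mean of at least 1 CPM. The log2 fold changes of Cubn were 0.27 and 0.41, neither called, and the defining gene Slc34a1 was at most 0.0144 CPM in a sample. Of 4 proximal tubule markers tested, edgeR called 2 lower under low stretch, Lrp2 (-0.65) and Slc5a2 (-1.18), and 0 higher. Under high stretch it called Aqp1 lower (-3.62) and 0 higher. The summed level of 5 immune markers was 23.5 to 25.9 and 6.69 to 13.5 CPM in experiment 1, and 24.4 to 25.7 and 6.06 to 9.72 CPM in experiment 2. It was mostly Csf1r, with 2 of 5 at a mean of at least 1 CPM, and the macrophage gene Adgre1 had no counts in 3 of the 4 groups. The log2 fold change of Cd68 was -0.12 under low stretch and 0.86 under high stretch, and that of Ptprc was 0.91 under low stretch. None of these was called by edgeR. Of the immune markers, edgeR called 1 of 4 tested lower under low stretch and 1 of 3 under high stretch, and 0 higher. In both contrasts this was Csf1r, at -1.51 and -2.02. The summed level of 8 mesangial and fibroblast markers was 87.7 to 104.5 and 58.2 to 80.6 CPM in experiment 1, and 126.5 to 162.8 and 105.0 to 126.4 CPM in experiment 2. In each group 2 or 3 of these 8 had a mean of at least 1 CPM. Of 5 mesangial and fibroblast markers tested, edgeR called Pdgfrb lower under low stretch (-0.56) and none under high stretch. Under low and high stretch, Des differed by -0.93 and -1.74, and Dcn by -0.43 and -1.93. Pdgfrb was at -0.42 under high stretch. Col1a1 went the other way, at 0.74 and 0.95, and Gata3 differed by -0.06 and 0.41. Of all genes tested, edgeR called 5.45% under low and 3.47% under high stretch. The summed level of 6 thick limb, distal and collecting duct markers was low but higher in stretched samples, at 0.311 to 0.460 and 0.523 to 0.758 CPM, then 0.0442 to 0.190 and 0.222 to 0.251 CPM. That of 3 parietal epithelial markers overlapped in experiment 1, at 338.1 to 405.2 and 311.7 to 571.8 CPM. In experiment 2 it was 495.0 to 597.1 and 438.6 to 493.6 CPM. None of the 3 was called by edgeR in either contrast. The podocyte transcription factor Wt1 held 5.01 ± 0.975 and 2.29 ± 1.07 CPM in experiment 1 and 2.81 ± 1.84 and 0.548 ± 0.0932 CPM in experiment 2. Nes, another podocyte marker, went the other way, with 53.1 ± 2.99 and 106.4 ± 17.2 CPM, then 37.2 ± 3.45 and 103.4 ± 29.3 CPM. Of the podocyte markers, edgeR called 1 higher and 0 lower among 10 tested under low stretch, and 1 higher and 1 lower among 9 under high stretch. The part of these markers in the Atp1b2 values was not tested. Glial and neuronal markers, a list of 6 for the cells in which Atp1b2 was first studied, summed to 1.43 to 3.31 CPM in all samples, with stretched and unstretched ranges that overlapped in both experiments.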

How the data were processed

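Poly(A) RNA of 15 samples was sequenced as stranded paired-end libraries, per the labels' protocols. The authors deposited raw counts per Ensembl gene and TPM per transcript. The submitters' processing notes name STAR 2.7.5c, featureCounts from Subread 2.0.0, Salmon 1.9.0, DESeq2 1.38.3 and the build mm39. Groups came from sample titles. Symbols and transcript links came from GENCODE M21 (52083 of 55416 genes, 137189 of 140789 transcripts; unmatched genes took at most 0.231% of counts).

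Genes were tested in R 4.3.3 with edgeR 4.0.16 (TMM, filterByExpr, quasi-likelihood F test, Benjamini-Hochberg adjustment at 0.05), each stretched group with its own unstretched samples. Standard errors were taken as the size of the fold change (log2) over the root of its F statistic. CPM were scaled by TMM. Likeness was computed on log2 values, prior count 2. Scripts were tested on simulated data. Alternatives were DESeq2 1.42.0, other size factors and filters, one fit of all samples, blocks and single samples left out.

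The 4 genes and all lists were chosen with earlier results of these data known. Named were the 4 genes, their transcripts with a mean share of at least 5% in a group, every pump and FXYD gene, other list genes called in a stretch contrast (at most 3 each way per list), 10 genes whatever their values, and the 5 genes most and 5 least correlated with Atp1b2. Some genes that this rule names are not reported here.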

Additional observations from a re-analysis of the deposited data

How the results depend on the processing

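The log2 fold changes of the 4 genes kept their direction under both stretch contrasts in every alternative run that held the gene. Fxyd5 was filtered out at a mean count of at least 100. Fxyd5 under high stretch moved from 3.11 to as much as 4.28, within a range of 2.65 to 4.28 with single samples left out. Counts of all genes called moved more. Low stretch gave 1181 genes, against 2837 with DESeq2, 640 with all 15 samples in one fit, and 220 to 1630 with single samples left out. High stretch gave 643, against 1403 with DESeq2, 1050 without a filter, 414 at a mean count of at least 100, 1488 with all 15 samples in one fit, and 14 to 1421 with single samples left out. Of the 52 listed genes tested under low stretch, DESeq2 called 6 higher and 6 lower, against 2837 of all 21672 genes. Plate runs as a block gave 12 and 8 of the 52, against 6106 of all 21672 genes. The cause was not tested.

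Replicate numbers did not pair samples of experiment 1: deviations from group means of same-numbered samples correlated at -0.44 to 0.365. In experiment 2, where replicate number and plate run give the same 3 pairs, they correlated at -0.163 to 0.449. These few pairs neither show nor exclude a pairing. With a replicate block, 490 genes were called under low stretch, on 3 low-stretch samples, and 1546 under high stretch. Atp1b2 was then -2.98 and -3.68, and Fxyd5 3.25 and 3.34. With plate runs as the block, low stretch called 6106 genes, high stretch again 1546, and the difference between effects 3. Same-run samples of experiment 1 correlated at 0.327 to 0.57, against -0.521 to -0.052 for samples of other runs. Those of experiment 2, the same pairs as by replicate number, correlated at -0.163 to 0.449. The main fits had no term for runs, so their p-values treat samples of a run as independent.

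Between unstretched groups, Atp1b2 passed with DESeq2 (1.01), without the filter (1.00) and with the replicate block (1.13, edgeR adjusted p = 0.00519). That block joined samples of different experiments by number alone, and same-numbered unstretched samples correlated at -0.061 to 0.341. Atp1b2 ranged from 0.67 to 1.60 with single samples left out. Atp1b1 ranged from -1.10 to -0.32 and Fxyd5 from -0.54 to 1.38. The difference between effects ranged from -1.96 to -1.02 for Atp1b2 (-0.73 with the replicate block, -1.32 with plate runs as the block), -0.70 to 0.09 for Atp1b1, -0.05 to 0.21 for Atp1b3 and -0.17 to 1.75 for Fxyd5. Few counts limit Fxyd5, at 2 to 34 in unstretched samples.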
